A study of Homo sapiens with 4 samples.

Results

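The Krüppel-like factors (KLFs) other than KLF1 were examined in K562 cells, an established line from human chronic myeloid leukemia, expressing RUNX1::ERG or carrying the empty vector. The 10 genes KLF2, KLF3, KLF4, KLF5, KLF6, KLF9, KLF10, KLF11, KLF13 and KLF16 were taken by name, through their NCBI gene numbers, from the 25702 genes of the deposited count files, and all 10 were found. Whole transcriptome sequencing (WTS) was performed on poly(A)-enriched RNA of 2 biological replicates per group, with no drug treatment in either. RUNX1::ERG cells received the LeGO-iG2 plasmid coding for the fusion together with green fluorescent protein, and control cells received empty LeGO-iG2. Transfection was transient, and whether transfected cells were sorted before RNA extraction is not given in the sources used here, so each library may mix transfected and untransfected cells, although the study describes its K562 protocol as transfecting most cells. In such bulk RNA, fewer expressing cells and less RNA per cell cannot be told apart.

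KLFs are transcription factors whose C-terminal zinc fingers bind CACCC and GC-rich elements. KLF2, KLF4, KLF5 and KLF6 act mainly as activators through acetyltransferases, KLF3 recruits the CtBP corepressors, and KLF9, KLF10, KLF11, KLF13 and KLF16 carry a motif that binds the Sin3 corepressor. In blood cells KLF2 is known for the quiescence of lymphocytes and KLF4 for monocyte differentiation, and KLF3 is a target of KLF1, the erythroid KLF. The comparison of RUNX1::ERG with the empty vector asked whether the fusion, which keeps the Runt and Ets DNA-binding domains, altered these genes.

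Of the 10 KLF genes, 0 passed an adjusted p of 0.05, against 4.79% of the 15394 genes tested with edgeR (quasi-likelihood test, p adjusted by Benjamini-Hochberg over all of them; 3.64% higher and 1.15% lower). The DESeq2 Wald test and limma voom also called 0 of the 10. At an unadjusted p under 0.05 there was 1, KLF2, against 18.0% of all tested genes. KLF2 was also the 1 member with both RUNX1::ERG libraries above both empty vector libraries, a pattern shown by 25.1% of tested genes. No member had both below, against 22.1%. The median log2 fold change of the 10 genes was 0.02, beside 0.00 over all tested genes (-0.0017). At the background rate fewer than 1 of 10 genes would be called, so a count of 0 does not set the KLF genes apart. The 95% interval of the fold change lay between a halving (0.5) and a doubling (2) for 7 of the 10 genes, KLF3, KLF6, KLF9, KLF10, KLF11, KLF13 and KLF16. It was wider for the other 3, KLF2, KLF4 and KLF5, which had between 29 and 130 counts in any library.

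**Figure D1:**
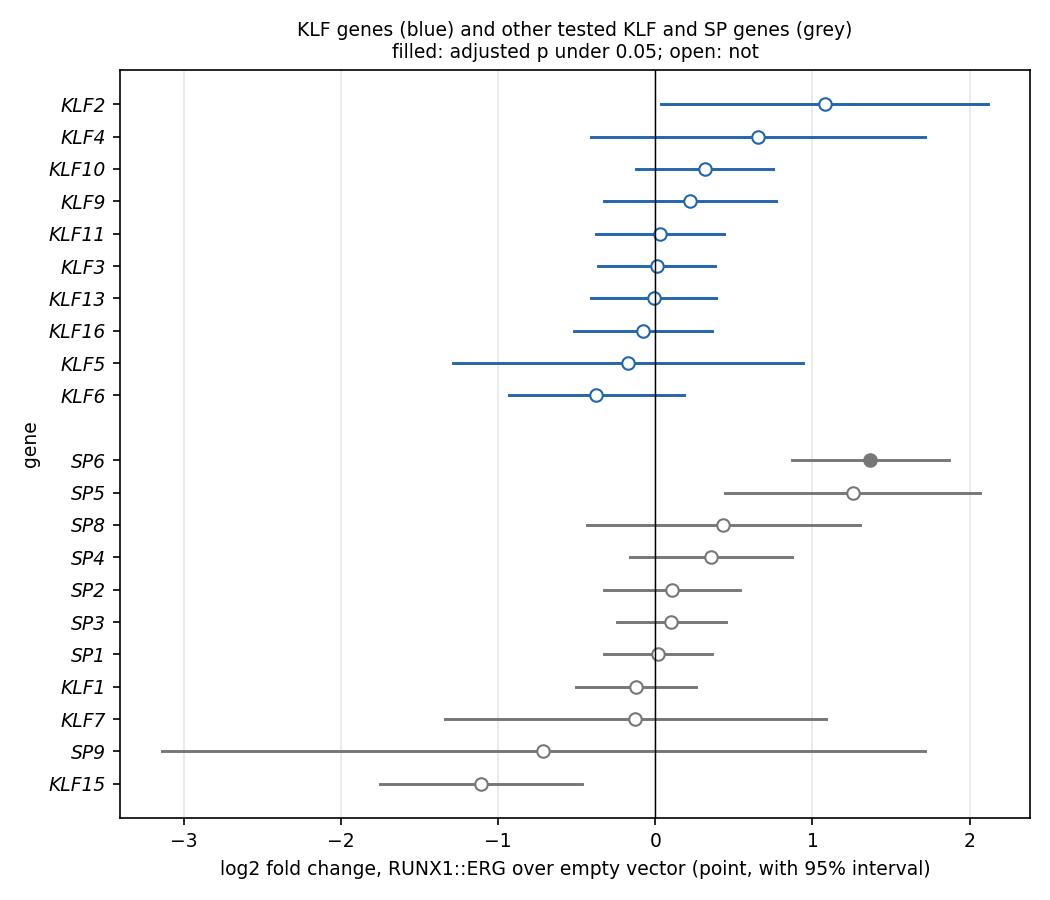
Log2 fold change of RUNX1::ERG over empty vector (x axis) with its 95% interval from edgeR for the 10 KLF genes (blue) and the 11 other tested KLF and SP genes (grey). A filled point marks an adjusted p under 0.05, which was reached by SP6 and by no blue gene; the interval of KLF2 runs from 0.03 to 2.12.

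As a check of the labels, ERG was read 4 times in both control libraries, but 80443 and 27218 times in the first and second RUNX1::ERG library, and its normalized level differed by 2.52 times between them. Library totals ran from 59695387 to 82352144 counts. Globin genes of K562 were high throughout, HBE1 from 6393 to 8410 normalized CPM (counts scaled to the library total times its TMM factor). HBZ was at 966 and 1100 with the empty vector and at 753 and 615 with RUNX1::ERG, a log2 fold change of -0.59. It came close to the threshold without passing it (edgeR adjusted p = 0.05 after rounding). Of 10 K562 markers, 1 was called higher, TAL1, against 3.64% of all tested genes, and 0 lower, against 1.15%. Of 9 markers of other cell types, MS4A1 was at 0 in all 4 libraries and the summed level was 87.6 and 95.6 normalized CPM with the empty vector and 101 and 98.9 with RUNX1::ERG, most of it EPCAM. Of these 9, 6 were tested, with 3 called higher, against 3.64% of all tested genes, and 0 lower, against 1.15%. Higher with RUNX1::ERG were CD14 (0.183 and 0.425, then 3.85 and 1.99 normalized CPM), LYZ (6.97 and 9.9, then 18.1 and 18.7) and COL1A1 (4.13 and 3.62, then 22 and 19.6). EPCAM, with separate groups (75.3 and 81.2, then 55.5 and 58.2), had a log2 fold change of -0.46 and an edgeR adjusted p of 0.14. CD3E, CD79A and MPO were at or below 0.474 in every library, and ALB at or below 1.34. The part of these markers in the values below was not tested. The summed level of 14 genes of the stress response driven by ATF4 was 2686 normalized CPM in empty vector replicate 1. It was 534 in empty vector replicate 2, 507 in RUNX1::ERG replicate 1 and 430 in replicate 2. The 14 were listed for being high in empty vector replicate 1 in earlier results of these data, so this gap is a description only.

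Promoter sequences are shown for the 2 members with the largest fold changes, KLF2 and KLF4, and for the 2 that differed most between empty vector libraries among the well expressed members, KLF6 and KLF9. Each is the 250 bases before the RefSeq start, from a GRCh38.p14 table (not the build of the counts, whose gene positions are given below on GRCh37), written 5′ to 3′ on the gene's strand. They lie at chr19:16324576-16324825 (plus strand), chr9:107489770-107490019 (minus), chr10:3785210-3785459 (minus) and chr9:70414658-70414907 (minus). Capitals mark the GC box GGGCGG on either strand and, in KLF2, also the consensus of MEF2, a factor through which the MEK5-ERK5 kinases activate KLF2 and KLF4.

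KLF2: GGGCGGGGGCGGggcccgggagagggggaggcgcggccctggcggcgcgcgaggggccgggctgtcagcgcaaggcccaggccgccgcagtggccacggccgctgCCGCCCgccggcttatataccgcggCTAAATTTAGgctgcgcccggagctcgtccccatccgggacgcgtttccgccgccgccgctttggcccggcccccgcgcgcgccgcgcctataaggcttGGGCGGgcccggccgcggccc

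KLF4: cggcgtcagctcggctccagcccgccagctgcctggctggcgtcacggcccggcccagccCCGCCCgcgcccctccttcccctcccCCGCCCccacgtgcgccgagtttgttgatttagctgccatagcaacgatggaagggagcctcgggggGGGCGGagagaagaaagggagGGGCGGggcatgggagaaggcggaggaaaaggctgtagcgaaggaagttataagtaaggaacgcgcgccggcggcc

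KLF6: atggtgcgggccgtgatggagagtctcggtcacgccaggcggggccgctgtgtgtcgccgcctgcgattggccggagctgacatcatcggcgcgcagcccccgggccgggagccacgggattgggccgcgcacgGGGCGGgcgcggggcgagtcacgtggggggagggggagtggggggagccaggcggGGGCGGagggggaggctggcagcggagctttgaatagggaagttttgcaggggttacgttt

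KLF9: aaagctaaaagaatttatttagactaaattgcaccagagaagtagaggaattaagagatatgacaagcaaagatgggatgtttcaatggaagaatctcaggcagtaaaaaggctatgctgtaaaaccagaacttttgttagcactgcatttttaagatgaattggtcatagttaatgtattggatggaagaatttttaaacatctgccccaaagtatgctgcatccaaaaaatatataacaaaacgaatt

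The KLF2, KLF4 and KLF6 windows were GC-rich (80.0%, 69.2% and 72.4%), whereas that of KLF9 was 32.4% GC, beside a median of 58.0% over 35114 RefSeq promoter windows. Windows were found for 8 of the 10 genes, KLF3 and KLF10 having none in the table, and KLF5 and KLF11 have 2 each. GGGCGG was found in 8 of these 10 windows, from 7 of the 8 genes, on either strand, against 42.6% of all windows. The shares over all windows, here and below, were not matched for GC content. CACCC was found in 4 of the 10, in KLF5, KLF11 and KLF13, against 54.7%. The Runt core, TGTGGT or TGCGGT, was found in 1, a KLF5 window, against 16.3%. The Ets-type sequence CCGGAA was found in 0, against 14.5%. The shorter Ets core GGAA, which occurs in windows printed above, and its other flanks were not counted. The MEF2 consensus was found in KLF2 alone, 120 bases before the start, against 2.8% of all windows. Both strands were searched, and a GC box and CACCC can share their run of C. A match is a description of the sequence and does not show what binds there.

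The 10 genes covered a wide range of levels. Levels are compared between genes as normalized CPM per kilobase of the MANE Select transcript. In the empty vector libraries they ran, in falling order, KLF16 (28.6 ± 6.15, SD, n = 2), KLF3 (20.3 ± 3.42), KLF10 (11 ± 1.97), KLF6 (10.3 ± 4.19), KLF11 (5.24 ± 0.2), KLF9 (4.63 ± 1.68), KLF13 (4.06 ± 0.223), KLF4 (0.247 ± 0.0422), KLF5 (0.216 ± 0.0175) and KLF2 (0.208 ± 0.0884). KLF16 lay 137 times above KLF2. The empty vector values of KLF10 and KLF6 overlapped, as did those of KLF11 and KLF9, of KLF9 and KLF13, of KLF4 and KLF5 and of KLF5 and KLF2, so the order within these pairs is not resolved. With RUNX1::ERG the first 4 places were the same, and KLF2 was eighth, KLF4 ninth and KLF5 last. KLF2, KLF4 and KLF5 together made up from 0.698% to 1.43% of the summed level of the 10 genes in a library. The choice of length moves this order: with coding length instead, added after the data were seen, only KLF5 kept its place, with KLF3 then above KLF16 at the top and KLF2 above KLF5 and KLF4 at the bottom.

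**Figure D2:**
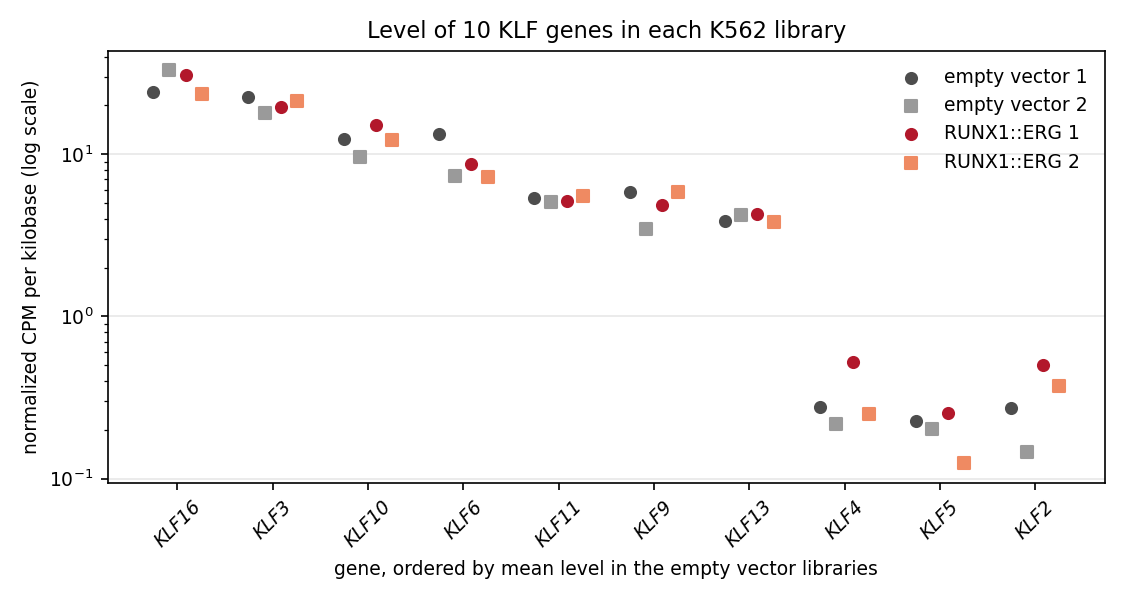
Normalized CPM per kilobase of transcript (log scale) of each KLF gene in the 4 libraries, circles for replicate 1 and squares for replicate 2, grey for empty vector and red or orange for RUNX1::ERG. Only for KLF2, 0.146 and 0.271 against 0.375 and 0.5, do both RUNX1::ERG points lie above both grey points.

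KLF2 (NCBI gene 10365, chromosome 19 of GRCh37, 16435637 to 16439496, 3 exons) was counted 46 and 29 times in the 2 control libraries, and 119 and 76 times with RUNX1::ERG, replicate 1 being named first here and below. In normalized CPM it was at 0.764 and 0.411, then at 1.41 and 1.06. The groups did not overlap, and within each group replicate 1 was the higher. The fold change was 2.11 (95% interval 1.02 to 4.35), a log2 fold change of 1.08 with a standard error of 0.47 and an edgeR adjusted p of 0.26, which did not pass the threshold. Its log2 fold change was 1.58 without empty vector replicate 1 and 0.69 without empty vector replicate 2. KLF2 stayed a gene of low level in every library, and the width of its interval leaves both almost no change and a change above 4-fold possible.

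KLF4 (NCBI gene 9314, chromosome 9, 110247133 to 110252763), a pluripotency and monocyte factor, had 49 and 45 counts with the empty vector and 130 and 53 with RUNX1::ERG. The second RUNX1::ERG library, at 0.737 normalized CPM, lay between the empty vector libraries at 0.813 and 0.638, while the first was at 1.54. The fold change of 1.58 (95% interval 0.754 to 3.29, edgeR adjusted p = 0.55) thus rested on RUNX1::ERG replicate 1: its log2 value was 0.66 over all 4 libraries, 0.02 without that library and 1.07 without replicate 2.

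KLF5 (NCBI gene 688, chromosome 13, 73629114 to 73651679), an activator best known from proliferating epithelium, was as low, with 46 and 48 counts in the empty vector libraries and 72 and 30 with RUNX1::ERG. The 2 RUNX1::ERG libraries lay on either side of the controls, at 0.854 and 0.417 against 0.764 and 0.681 normalized CPM. The fold change was 0.885 (95% interval 0.409 to 1.91), and its log2 value went from -0.79 without RUNX1::ERG replicate 1 to 0.23 without replicate 2. In all of KLF2, KLF4 and KLF5, RUNX1::ERG replicate 1, the library with more fusion reads, was the higher of the pair, by 1.34, 2.09 and 2.05 times. This order was not particular to these genes, being seen in 7 of the 10 members. With 30 to 130 counts per library and 1 library at each fusion level, a relation to the amount of fusion cannot be told apart from the spread between replicates.

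KLF6 (NCBI gene 1316, chromosome 10, 3818188 to 3827473), a widely expressed factor that responds early to growth signals and injury, changed direction with the choice of control library. It was at 61 and 33.8 normalized CPM in the 2 control libraries and at 39.8 and 33.3 in the RUNX1::ERG libraries. Empty vector replicate 1 was thus apart from the other 3, which lay close together. Over all libraries the fold change was 0.771 (95% interval 0.524 to 1.13, log2 fold change -0.38, adjusted p = 0.5 from edgeR). Without empty vector replicate 1 the log2 fold change was 0.11, and without empty vector replicate 2 it was -0.74 with an adjusted p of 0.021 from the same edgeR test, the only setting tried in which a member was called. In that fit the lone control library is assumed to vary like the RUNX1::ERG libraries.

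KLF9 (NCBI gene 687, chromosome 9, 72999520 to 73029573), a repressor induced by glucocorticoid and thyroid hormone, also differed between the controls. It was at 30.3 and 17.9 normalized CPM in the controls and at 25.5 and 30.7 with RUNX1::ERG, so that empty vector replicate 2 was low and the other 3 libraries were alike. The fold change was 1.17 (95% interval 0.799 to 1.7, edgeR adjusted p = 0.72), and its log2 value was 0.65 without empty vector replicate 1 and -0.11 without replicate 2. KLF6 and KLF9 were 1.81 and 1.69 times higher in empty vector replicate 1 than in replicate 2. A ratio of at least 1.5 was seen in 4.3% of the 9137 tested genes with a mean of at least 10 CPM. The ATF4 stress genes, listed for being high in empty vector replicate 1, were in sum 5.03 times higher there than in replicate 2. Each of the 13 tested was at its highest there, as the choice of the list implies. Their part in the KLF6 and KLF9 values was not tested.

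**Figure D3:**
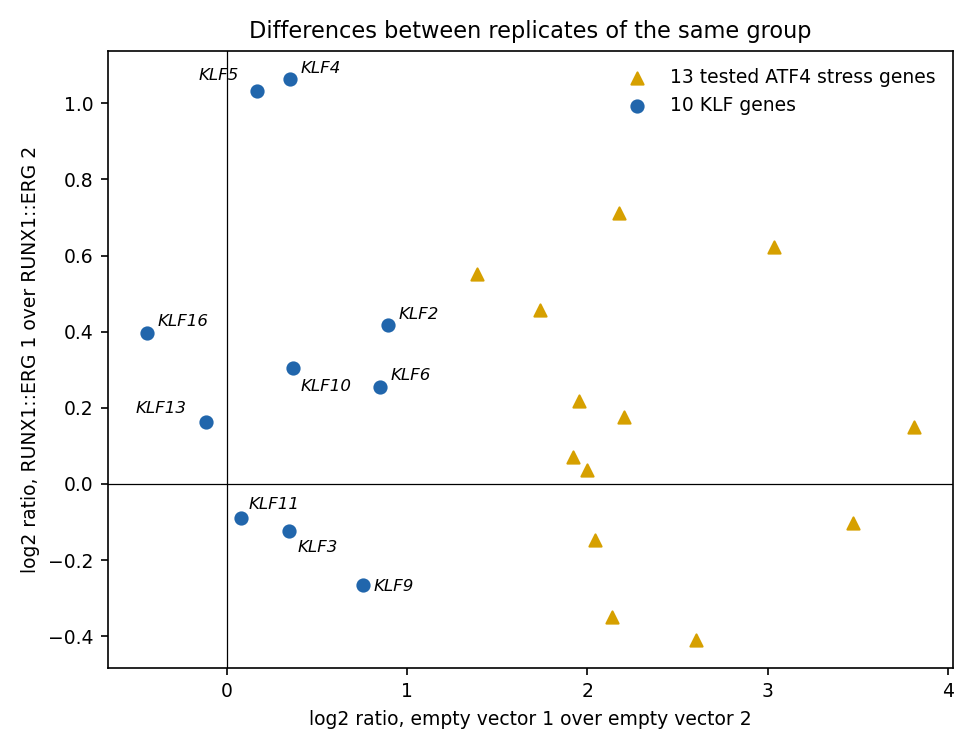
Log2 ratio of the replicates within each group, empty vector 1 over 2 on the x axis and RUNX1::ERG 1 over 2 on the y axis, for the 10 KLF genes (blue circles) and 13 tested ATF4 stress genes (yellow triangles). The stress genes, listed for being high in empty vector 1, lie to the right, with a median empty vector ratio of 4.4. KLF2, KLF6 and KLF9 are the KLF genes furthest to the right, at ratios of 1.86, 1.81 and 1.69.

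Among the other members with a Sin3-binding motif, KLF10 and KLF11 are known as early genes of TGF-beta signalling. KLF10 (NCBI gene 7071) was at 36.2 and 28.1 normalized CPM in the controls and at 44.1 and 35.7 with RUNX1::ERG. The lower RUNX1::ERG library fell just under the higher control, and the fold change was 1.24 (95% interval 0.919 to 1.68, edgeR adjusted p = 0.46). The log2 fold change of KLF10, 0.31, kept its sign whichever library was left out, from 0.14 to 0.5. KLF11 (NCBI gene 8462, chromosome 2, 10182976 to 10194963) was the steadiest member, at 21.7 and 20.6 and then 20.9 and 22.2 normalized CPM. Its fold change was 1.02, with a 95% interval from 0.769 to 1.35.

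KLF13 (NCBI gene 51621, chromosome 15, 31619038 to 31727868), which regulates the chemokine CCL5 in lymphocytes, was at 26.7 and 28.8 normalized CPM in the controls and at 29.1 and 26 with RUNX1::ERG. The 4 values interleaved, with a fold change of 0.993 (95% interval 0.754 to 1.31). KLF16 (NCBI gene 83855, chromosome 19, 1852398 to 1863578), with the highest level per transcript length, was at 70.3 and 95.5 normalized CPM and then at 89.4 and 67.9. Its range was nearly the same in both groups, and the fold change was 0.948 (95% interval 0.699 to 1.29).

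KLF3 (NCBI gene 51274, chromosome 4, 38665818 to 38703138), the CtBP-recruiting repressor, was at 127 and 100.1 normalized CPM in the controls and at 109 and 119 with RUNX1::ERG. Both RUNX1::ERG values lay between the controls, and the fold change was 1.01 (95% interval 0.776 to 1.3). The antisense gene KLF3-AS1 had at most 61 counts in a library, against at least 7058 for KLF3. KLF1, which drives KLF3 in erythroid cells, had a log2 fold change of -0.12 (95% interval -0.51 to 0.26) and did not pass the threshold either.

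**Figure D4:**
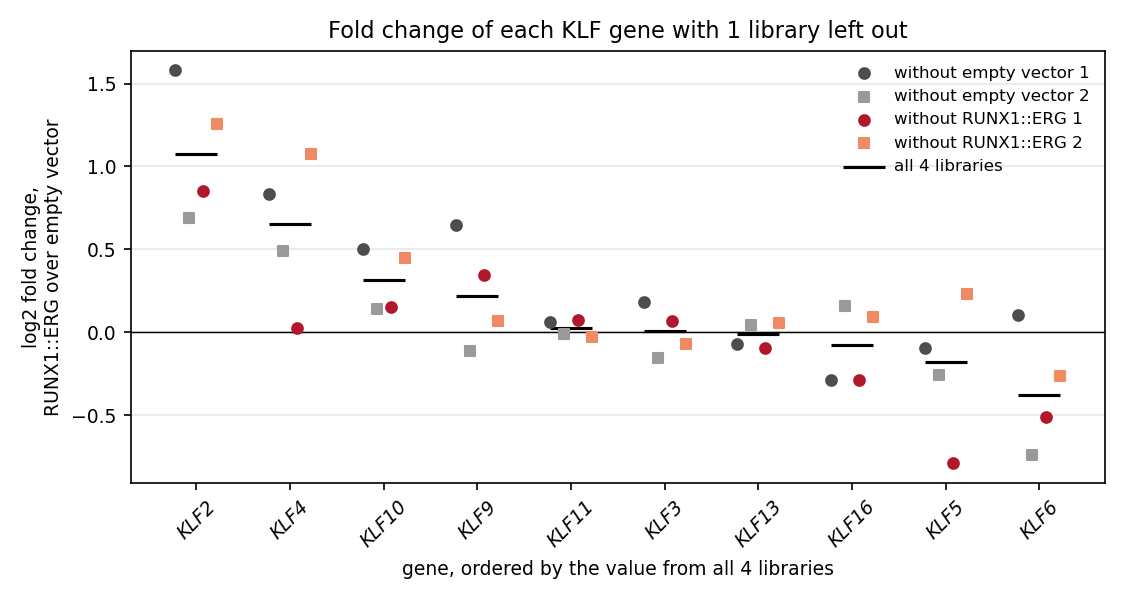
Log2 fold change of each KLF gene (y axis) with all 4 libraries (black bar) and with 1 library left out (points, coloured by the library removed). KLF2, KLF4 and KLF10 stay above 0 in every case, and KLF6 moves from 0.11 without empty vector replicate 1 to -0.74 without empty vector replicate 2.

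The genes whose profile over the 4 libraries was most like that of KLF2, by the distance between centred log2 values among 9137 tested genes with a mean of at least 10 CPM, were PPARD (distance 0.187), CR1L (0.194) and MACC1 (0.2). PPARD, a lipid-sensing nuclear receptor, was at 49.1 and 30.9 normalized CPM in the controls and at 85 and 67.6 with RUNX1::ERG. All 3 had a lower empty vector replicate 2 and a higher RUNX1::ERG replicate 1, as KLF2 did. Over 4 libraries such likeness is a description only, and CR1L may share reads with its close paralogue CR1.

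Other KLF and SP factors, which bind the same kind of element, were counted from a fixed list of 17, of which 16 were in the files and 11 were tested. SP6 rose and no other passed the threshold, 1 of 11 against 4.79% of all tested genes. SP6, known from tooth and limb epithelium, was at 22 and 34.1 normalized CPM in the controls and at 81 and 63.9 with RUNX1::ERG, a fold change of 2.58 (95% interval 1.83 to 3.65, edgeR adjusted p = 0.007). Its groups lay well apart, and it remained past the threshold in all 12 alternative settings. SP1, SP2 and SP3, the widely expressed relatives, had log2 fold changes of 0.02, 0.11 and 0.10. SP5 and KLF15, named after their values were seen, were close to the threshold in opposite directions, at log2 fold changes of 1.26 and -1.11 with edgeR adjusted p-values of 0.084 and 0.058. Both had groups that did not overlap. KLF15 passed with DESeq2 (adjusted p = 0.0066) and SP5 did not (0.058), and both passed without the filter on low counts and with the replicate block. KLF15 also passed with DESeq2 size factors in edgeR (adjusted p = 0.047) and without empty vector replicate 1 (0.0015). KLF8, KLF12, KLF14, KLF17 and SP7 were not tested and had at most 18 counts in a library.

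Of 12 cofactors and modifiers of KLF proteins, 0 passed the threshold, against 4.79% of all tested genes, and 2 had an unadjusted p under 0.05, against 18.0%. These 2, KAT2B and EP300, were named after their values were seen. They had log2 fold changes of 0.64 and 0.42, with edgeR adjusted p-values of 0.059 and 0.22. The deacetylases HDAC1 and HDAC2, which work with Sin3, had log2 fold changes of 0.18 and -0.12. The deacetylase HDAC3 was at 0.0029, and the corepressor CTBP1 was at 0.03.

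The routes that act upstream of the members were also counted, and their counts, 1 gene each, stand beside 4.79% called over all tested genes. In the MEK5-ERK5-MEF2 route, 1 of 5 tested genes passed. MEF2C, a transcription factor of lymphoid and muscle cells, was at 111 and 117 normalized CPM in the controls and at 201 and 214 with RUNX1::ERG, a fold change of 1.82 (95% interval 1.45 to 2.3, edgeR adjusted p = 0.009). MAP2K5, MAPK7, MEF2A and MEF2D, which did not pass, had log2 fold changes of 0.07, 0.26, 0.3 and 0.38. Of 7 genes of the TGF-beta route, 1 passed. The ligand TGFB1 was at 269 and 239 normalized CPM in the controls and at 596 and 367 with RUNX1::ERG, a log2 fold change of 0.92 (edgeR adjusted p = 0.034), which lost the call without RUNX1::ERG replicate 1 (0.53, adjusted p = 0.28). The receptor TGFBR1 and the transducers SMAD2, SMAD3 and SMAD4, which did not pass, were at 0.65, 0.11, -0.11 and -0.03. Of 5 tested glucocorticoid-responsive genes, 1 passed, TSC22D3, which encodes the leucine zipper protein GILZ. It was at 2.14 and 0.808 and then at 5.86 and 4.84 normalized CPM, with a log2 fold change of 1.87 (edgeR adjusted p = 0.033). FKBP5, NR3C1, PER1 and DUSP1, which did not pass, were at 0.02, -0.03, 0.29 and 0.13. The call of TSC22D3 was lost without RUNX1::ERG replicate 1 (log2 fold change 1.72, edgeR adjusted p = 0.12) and with scaling by library totals alone (1.89, adjusted p = 0.052).

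KLF2, KLF4, KLF6 and KLF10 are known as immediate-early genes, and 2 of the 13 tested genes of that class passed, BTG2 higher and MYC lower, against 3.64% called higher and 1.15% called lower over all tested genes. BTG2, an antiproliferative gene, was at 52.6 and 57.1 normalized CPM in the controls and at 140 and 131 with RUNX1::ERG, a log2 fold change of 1.3 (edgeR adjusted p = 0.00099). MYC, the growth-promoting factor, was at 301 and 289 and then at 134 and 140, a log2 fold change of -1.11 (edgeR adjusted p = 0.002). JUN, at 63.2 and 34.7 normalized CPM with the empty vector and 72.7 and 48.1 with RUNX1::ERG, showed a gap between controls close to that of KLF6, whereas EGR1, at 22.4 and 52.5, showed one in the other direction. JUNB and IER2 had log2 fold changes of 0.4 and -0.06 and did not pass.

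Of 11 tested genes known as targets of KLF proteins in other cells, 3 passed, all higher, against 3.64% of all tested genes called higher. The list was chosen with earlier results known, so its count is a description only. CDKN1A, the cyclin-dependent kinase inhibitor p21 that KLF4 and KLF6 can induce, was at 26.2 and 24.6 normalized CPM in the controls and at 106 and 76.3 with RUNX1::ERG, a fold change of 3.59 (95% interval 2.66 to 4.83, edgeR adjusted p = 0.00049). LGALS3, which encodes galectin-3 and which KLF3 can repress, was at 1.73 and 1.6 and then at 4.54 and 4.52, a fold change of 2.72 (95% interval 1.72 to 4.3, edgeR adjusted p = 0.021). It lost the call when either RUNX1::ERG library was left out (edgeR adjusted p = 0.13 and 0.055), with log2 fold changes of 1.44 and 1.43 beside 1.44 over all libraries. IL6R, the interleukin-6 receptor, was at 0.631 and 0.397 and then at 2.94 and 2.04, a fold change of 4.86 (95% interval 2.55 to 9.28), and was not called without RUNX1::ERG replicate 1 (log2 fold change 1.99 beside 2.28, edgeR adjusted p = 0.12). TXNIP, CDKN1B, NOS3 and CCND1, which did not pass, had log2 fold changes of -0.03, 0.04, -0.7 and -0.06. NOS3 was close to the threshold (edgeR adjusted p = 0.054), with both RUNX1::ERG libraries below both controls. THBD, named after its values were seen, was close in the other direction, at 1.09 (edgeR adjusted p = 0.071). These genes answer to many other factors, and whether any KLF protein acted on them was not tested. The ATF4 stress genes were listed for being high in empty vector replicate 1 in earlier results of these data. That 13 of 13 tested were highest there follows from this choice. Of these 13, 4 were called lower, INHBE, PSAT1, PHGDH and STC2, against 1.15% of all tested genes. With empty vector replicate 1 in the fit they were at log2 fold changes of -3.13, -2.23, -1.94 and -2.42. Without that library these values were -0.53, -0.80, -0.62 and -1.17, and INHBE and PHGDH lost the call. Without RUNX1::ERG replicate 1, INHBE, PSAT1 and PHGDH lost it (adjusted p = 0.079, 0.057 and 0.063 from edgeR) at log2 fold changes of -3.07, -2.07 and -1.95. With scaling by library totals alone these 3 were also not called (adjusted p = 0.074, 0.054 and 0.070 from edgeR), nor was INHBE with the replicate block (0.051). DESeq2 did not call these 3 either, and limma voom called none of the 4.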

How the data were processed

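The authors deposited raw counts per gene, 1 file per library, for 2 empty vector and 2 RUNX1::ERG samples. Paired-end reads and hg19 are given in the methods, and the submitters' processing notes name HISAT2 2.2.1 and featureCounts 2.0.1. Annotation, strand setting and counting of mates are not given in the sources used here. Of the counts from 1 to 10, 66.7% to 68.9% per library were even. Whether both mates of a pair were counted was not tested, and fragments may be fewer than counts. The limit set by a count of 0 is 3 counts, or 0.0364 to 0.0503 CPM, for counting error alone.

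Gene numbers were joined to symbols of a RefSeq table (92.2% of 25702 matched). Positions and transcript lengths are those of GENCODE v44 on GRCh37. edgeR 4.0.16 in R 4.3.3 was run on all genes, using TMM factors, filterByExpr and the quasi-likelihood F-test, with p-values adjusted by the Benjamini-Hochberg method. Standard errors are the log2 fold change over the square root of F, and the 95% intervals use the degrees of freedom of the fit and are not adjusted. Alternatives were other scalings and filters, DESeq2 1.42.0, limma 3.58.1 voom, a replicate block, halved counts and leaving out each library. The procedure was tested on simulated data. An exact permutation of 2 against 2 libraries cannot give a p below 0.333.

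The members and gene lists were chosen with earlier results of these data known. All members are described. Of the lists, genes past 0.05 and up to 4 others with the highest mean are named, besides those said to be named after their values were seen. The 3 genes most like the member with the largest fold change are also named. Nothing says whether replicates came from separate cultures, beyond being called biological replicates.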

Additional observations from a re-analysis of the deposited data

How the results depend on the processing

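No KLF member was called under the 8 alternatives that kept all 4 libraries, and 1, KLF6, was called without empty vector replicate 2, so the count ran from 0 to 1 with a library left out. KLF2, KLF4 and KLF5 had at most 130 counts in a library, and with all counts halved their log2 fold changes were 1.10, 0.69 and -0.16. The sign of KLF3 turned in the DESeq2 Wald test (-0.0039), in edgeR when scaled by DESeq2 size factors (-0.0029) and when no gene was filtered (-0.0023), and that of KLF13 when scaled by library totals alone (0.0325), all near 0. With each library left out, log2 fold changes ran from -0.16 to 0.19 for KLF3, from -0.79 to 0.23 for KLF5, from -0.74 to 0.11 for KLF6, from -0.11 to 0.65 for KLF9, from -0.0303 to 0.0720 for KLF11, from -0.0941 to 0.0546 for KLF13, from -0.29 to 0.16 for KLF16 and from -0.32 to 0.0953 for KLF1. KLF2 ran from 0.69 to 1.58, KLF4 from 0.02 to 1.07 and KLF10 from 0.14 to 0.5.

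The count of genes called was 737 (560 higher, 177 lower), 1500 without a filter (962 and 538), 1204 with DESeq2 (403 lower) and 1733 with the replicate block (1082 and 651), and library totals alone left 103 lower. With a library left out it ran from 286 to 1336, with 228 to 922 higher and 58 to 602 lower. The cause was not tested. The replicate block left all members uncalled, with KLF2 at 1.11 (adjusted p = 0.11 from edgeR). Across genes, libraries of equal number deviated from their group means together (r = 0.271), but no label ties a number to a common batch and there are only 2 numbers, so no pairing was assumed. With each gene's coding length 1 member kept its place in the order of levels, and with all exons together 5 did. Both lengths were chosen after seeing the data. The coding length from a protein table was not run.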
